A study of Homo sapiens with 9 samples.

Results

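Both LSD1 shRNAs of the study, named sh68 and sh72 in the count table, were compared with each other in OCI-Ly1 cells. The members were the 3 sh72 and the 3 sh68 libraries, 6 of the 9 libraries of the series, and all 15725 of 26816 genes that passed a filter on low counts. OCI-Ly1 is an established line from a human large B-cell lymphoma that resembles cells of the germinal centre. Its cells, grown in IMDM with 10% fetal bovine serum and antibiotics, carried an shRNA in the pLKO1 vector under puromycin selection, and polyadenylated RNA was sequenced in biological triplicates. The groups were a scrambled shRNA (shSCR, 3 libraries), sh68 and sh72, so that vector and selection were common to all. Each shRNA is a single hairpin sequence in a single line. The sample titles number the LSD1 shRNAs and no label ties a number to a table name, so sh68 and sh72 are the names kept here.

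LSD1, the product of KDM1A, takes methyl groups off the fourth lysine of histone H3 and acts together with CoREST, HDAC1 and HDAC2, often brought to DNA by GFI1 or other repressors. In germinal-centre B cells it serves as a corepressor of BCL6. Interferon-stimulated genes are switched on by a complex that holds STAT2 and IRF9 after interferon binds its receptor, and RAG1 and RAG2 assemble antibody genes in B-cell precursors. Hairpins against a shared target can differ in the depth of the knockdown and in their effects on other transcripts. Comparing them asks which genes differ although the target is shared.

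KDM1A itself was low with both shRNAs. It stood at 23.4, 24.1 and 25.8 CPM (read counts scaled to library size) in the sh68 libraries, at 19.1, 22.7 and 20.9 in the sh72 libraries and at 121, 119.9 and 123 in the shSCR libraries. All sh72 values lay below all sh68 values. The log2 fold change of sh72 minus sh68, given with its standard error (SE) here and below, was -0.23 ± 0.0608 (adjusted p = 0.00261), a 1.17-fold lower level with sh72. The adjusted p throughout is from edgeR's quasi-likelihood test on all 9 libraries with Benjamini-Hochberg adjustment over the 15725 genes, and genes pass below 0.05.

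Of the genes tested, 56.2% differed between the shRNAs, 4278 higher with sh72 (27.2%) and 4563 lower (29%). With GC and length offsets in the model the split was 5528 higher and 3800 lower, 59.3% higher among the calls against 48.4%. The median log2 fold change of all genes was 0.0543 under these offsets and -0.0108 without them, so list medians under offsets also hold this shift. Most differences were small, and the median absolute log2 fold change of all genes was 0.256. At least 2-fold differences were more often lower with sh72, in 956 genes against 301, and at least 4-fold ones numbered 218 lower and 53 higher. Under a test against a minimum of 1.5-fold, 1036 genes were lower and 359 higher. The at least 2-fold sets had a median average log2 CPM of 0.342 (lower) and -0.241 (higher), against 4.1 over all genes. Of all genes, 591 needed the sh68 libraries to pass the low-count filter, 275 of them lower. Another 365 needed the sh72 libraries, 97 of them higher, so these counts of large differences are a description. The libraries held 29857865 to 35270849 counted reads, and in the 6 libraries the first principal component (74.6% of the variance) separated sh72 from sh68. The second (8.02%) set sh72 replicate 1 at -22.1 against 7.13 and 17.1 in its fellow replicates. Pearson's r across genes was 0.9948 or more within a shRNA and between 0.978 and 0.982 across them.

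**Figure D1:**
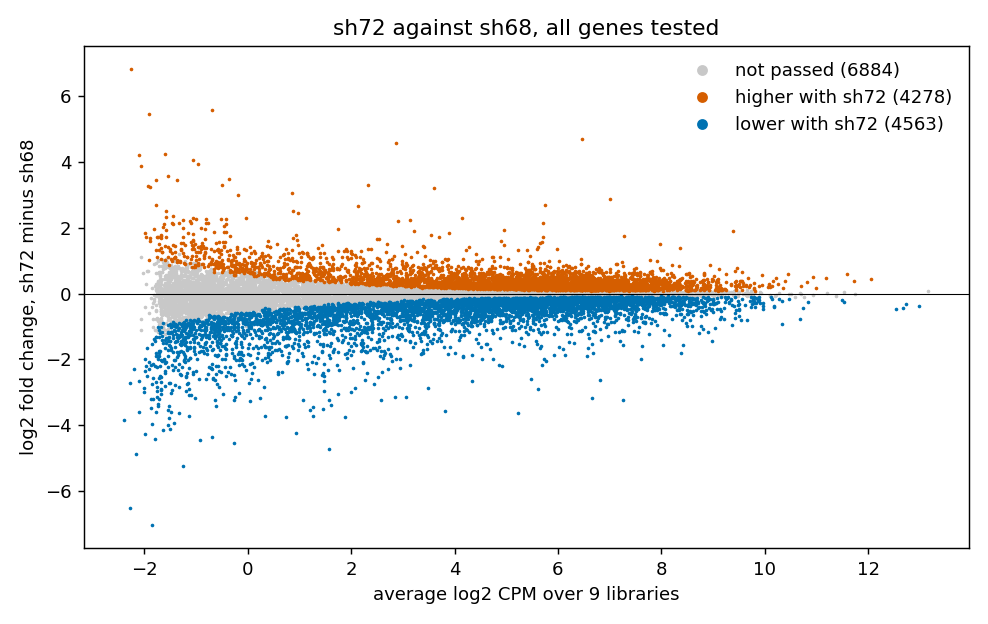
Log2 fold change of sh72 minus sh68 (vertical axis) against average log2 CPM over the 9 libraries (horizontal axis), a point per gene tested, coloured by whether it passed an adjusted p of 0.05. Large differences below 0 outnumber those above it: 956 genes were at least 2-fold lower with sh72 and 301 at least 2-fold higher. Some of these genes needed the sh68 or the sh72 libraries to pass the low-count filter.

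Interferon-stimulated genes had the largest positive median difference of the gene lists described. Of 45 tested members of a list of such genes, 38 were higher with sh72 (84.4%) and 2 lower (4.44%). Over all genes tested, 27.2% were higher and 29% lower. The list's median log2 fold change was 0.867 against -0.0108 over all genes tested. Both shRNAs lay below the control, with a median of -1.40 for sh68 minus shSCR and -0.778 for sh72 minus shSCR, which share the control libraries. The members' summed level was 2190 to 2380 CPM in the sh68 libraries, 3840 to 4290 with sh72 and 6250 to 6850 with shSCR. Under the minimum of 1.5-fold, 28 members were higher and 1 lower.

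The DNA just before the start sites of the 4 members with the largest differences that have a RefSeq promoter entry is shown because interferon-activated complexes bind a repeat of GAAA. Capitals mark GAAA, any 2 bases and GAAA, or on the other strand TTTC, any 2 bases and TTTC, in the 250 bases before the start, 5′ to 3′ in the direction of the gene (RefSeq, GRCh38.p14). IFI44L lies at chr1:78620198-78620447 (plus strand), IFIT1 at chr10:89392373-89392622 (plus), IFI44 at chr1:78649539-78649788 (plus) and DDX60 at chr4:168318753-168319002 (minus). The DDX60 window precedes the start used in the promoter table, which lies inside the gene's RefSeq span (chr4:168216294-168325979).
IFI44L: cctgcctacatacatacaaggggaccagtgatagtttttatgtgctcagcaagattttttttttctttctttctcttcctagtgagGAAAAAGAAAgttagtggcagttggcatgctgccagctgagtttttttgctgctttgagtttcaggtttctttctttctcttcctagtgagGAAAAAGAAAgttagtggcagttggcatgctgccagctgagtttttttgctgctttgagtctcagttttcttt
IFIT1: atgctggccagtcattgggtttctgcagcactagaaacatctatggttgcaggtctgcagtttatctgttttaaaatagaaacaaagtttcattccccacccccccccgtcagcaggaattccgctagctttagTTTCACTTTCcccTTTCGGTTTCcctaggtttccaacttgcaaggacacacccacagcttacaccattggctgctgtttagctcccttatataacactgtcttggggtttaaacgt
IFI44: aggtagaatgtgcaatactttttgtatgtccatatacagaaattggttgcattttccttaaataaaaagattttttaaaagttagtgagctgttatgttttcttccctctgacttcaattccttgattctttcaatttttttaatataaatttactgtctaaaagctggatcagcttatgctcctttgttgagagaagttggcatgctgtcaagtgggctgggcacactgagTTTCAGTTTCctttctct
DDX60: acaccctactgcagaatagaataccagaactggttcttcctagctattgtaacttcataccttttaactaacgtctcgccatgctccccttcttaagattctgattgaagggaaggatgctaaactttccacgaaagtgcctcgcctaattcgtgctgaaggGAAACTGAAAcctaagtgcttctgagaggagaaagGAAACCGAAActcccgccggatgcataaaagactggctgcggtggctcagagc
The letters occurred 2 times each in IFI44L, IFIT1 and DDX60, and 1 time in IFI44. In windows of 300 bases, from 250 before to 50 after the start, 26 of 36 list members with an entry held them (72.2%), against 3.03% of the 11286 tested genes with an entry and 3.57% of all 35116 RefSeq promoters. Among members at least 2-fold higher with sh72, 12 of 15 held them (80%), and among the other members 14 of 21 (66.7%). A match describes letters and shows no binding.

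IFI44L, a chromosome 1 neighbour of IFI44 at chr1:78620448-78646145, had the largest increase of the genes that met the naming rule. Its level was 2.33, 4.1 and 3.63 CPM with sh68, 88.9, 82.4 and 90.1 with sh72 and 187, 164 and 179 with shSCR. The sh68 libraries were near the bottom of its range and the groups did not overlap, with a 25.8-fold higher level with sh72 (log2 fold change 4.69 ± 0.0933, adjusted p = 1.89e-21). IFI44 followed the same order of groups, with 13.7, 16.5 and 18.9 CPM with sh68, 129, 114 and 117 with sh72 and 259, 247 and 245 with shSCR (log2 fold change 2.87 ± 0.0697, adjusted p = 4.40e-20). IFIT1, which binds foreign RNA by its 5′ end, stood at 1.07, 1.2 and 1.45 CPM with sh68, 13, 11 and 10.9 with sh72 and 26.1, 23.3 and 22.4 with shSCR (log2 fold change 3.22 ± 0.128, adjusted p = 5.11e-16). OASL, a relative of the oligoadenylate synthetases, stood at 0.737, 0.655 and 0.625 CPM with sh68, 6.27, 7.08 and 6.46 with sh72 and 8.5, 8.69 and 6.92 with shSCR. Its sh72 values reached the range of the control, in which 1 of 3 libraries lay between the sh72 values, and its log2 fold change was 3.29 ± 0.159 (adjusted p = 1.97e-14). MX1, a GTPase that blocks virus replication, had the largest gain in CPM of the list, at 145, 167 and 177 CPM with sh68, 693, 587 and 551 with sh72 and 1314, 1198 and 1150.2 with shSCR (log2 fold change 1.90 ± 0.0701, adjusted p = 1.15e-16). For these genes other than OASL the order was shSCR above sh72 above sh68, with no overlap between neighbouring groups.

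DDX60, RSAD2, IFIT3, USP18 and XAF1 completed the interferon genes among the 15 largest gains, with log2 fold changes of 2.68, 2.29, 2.24, 2.21 and 2.15. RSAD2 makes an antiviral nucleotide and USP18 removes ISG15 from proteins and dampens the receptor. ISG15, the ubiquitin-like modifier, stood at 37.2, 39.6 and 39.4 CPM with sh68, 157, 125 and 108 with sh72 and 348, 289.6 and 260.3 with shSCR (log2 fold change 1.75 ± 0.101). The members that did not follow the list were few. LAMP3, a lysosomal membrane protein of mature dendritic cells, was chosen after its values were seen, at 154, 138 and 159.8 CPM with sh68, 45.3, 43.4 and 41.1 with sh72 and 117, 114 and 105 with shSCR (log2 fold change -1.80 ± 0.0548, adjusted p = 3.28e-18). It had the lowest log2 fold change of the list, and its sh72 libraries lay below both other groups. ISG20, an exonuclease, likewise chosen after its values were seen, was lower, with a log2 fold change of -0.17 ± 0.061 (adjusted p = 0.0208). The count of lower members was 1 without sh68 replicate 1 or 2 or sh72 replicate 2 or 3. RTP4, TRIM5, TRIM21, SAMD9 and IFITM3 did not pass.

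**Figure D2:**
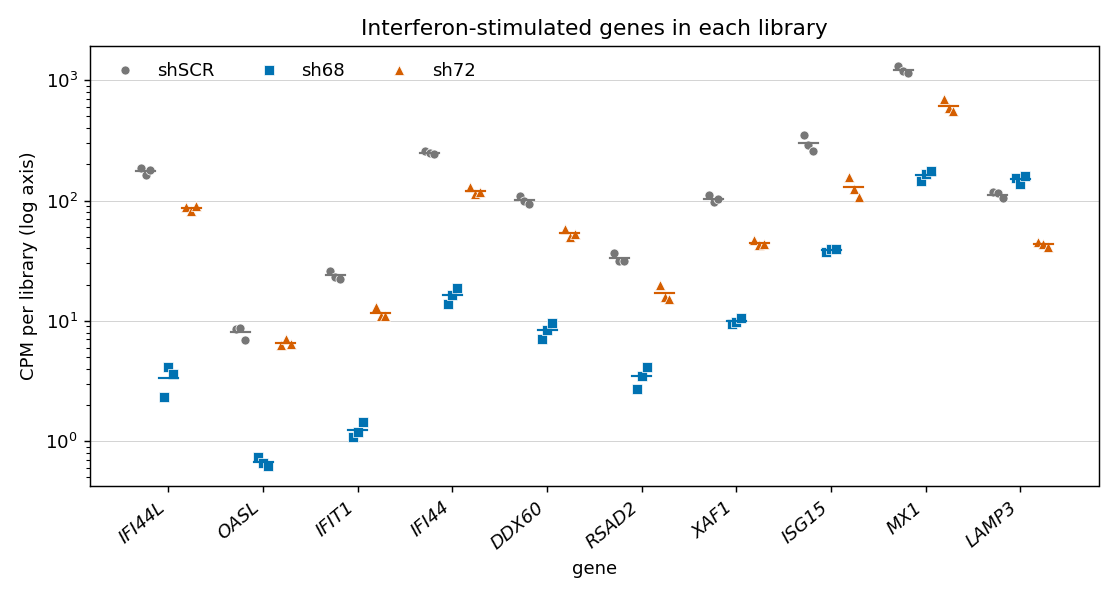
CPM of 10 interferon-stimulated genes in each library (vertical log axis), with 3 points a group and a bar at the group mean. For every gene shown except LAMP3 the sh68 points lie below the sh72 points, as for IFI44L at 2.33 to 4.10 against 82.4 to 90.1 CPM.

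The factors that carry the interferon signal moved in both directions. Of 20 tested receptors and transcription factors, 6 were higher with sh72 (30%) and 9 lower (45%), against 27.2% and 29% of all genes. The higher ones included IRF7, IRF5, IRF9, IRF3 and STAT2. IRF9, a part of the complex that binds the element above, stood at 29.1, 29.3 and 32.3 CPM with sh68, 51.6, 51.8 and 48.2 with sh72 and 82.4, 82.8 and 80.2 with shSCR (log2 fold change 0.74 ± 0.0514), and IRF7, the amplifier of interferon production, was low but ordered alike at 0.368, 0.313 and 0.284 CPM with sh68, 0.991, 0.727 and 0.722 with sh72 and 1.52, 1.9 and 1.37 with shSCR (1.34 ± 0.298). The lower ones included IRF1, an early activator, at 21.5, 17.3 and 21 CPM with sh68, 11.5, 11.5 and 11.2 with sh72 and 16.6, 15 and 14.7 with shSCR (log2 fold change -0.80 ± 0.0802, adjusted p = 8.81e-09), with exons that overlap C5orf56. Thus IRF1 and IRF9 took opposite directions in this contrast, and the receptor chain gene IFNAR1, chosen after its values were seen, had an adjusted p of 0.733 (log2 fold change -0.02 ± 0.0378).

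Among 30 tested nucleic acid sensors and adaptors 16 were higher with sh72 (53.3%) and 6 lower (20%). Over all genes 27.2% were higher and 29% lower, and the list's median was 0.159. Under the minimum of 1.5-fold, 0 of these sensors and adaptors were higher and 2 lower. ADAR, which edits double-stranded RNA, stood at 482, 493 and 505 CPM with sh68, 818, 754 and 760.3 with sh72 and 998, 979.6 and 969 with shSCR (log2 fold change 0.66 ± 0.0377), and TLR9, a sensor of DNA in endosomes, at 36.5, 34.9 and 34.4 CPM with sh68, 59.2, 55.6 and 53.3 with sh72 and 60.5, 62.5 and 57.8 with shSCR (0.67 ± 0.051). TLR7, the endosomal sensor of single-stranded RNA, went the other way at 3.62, 3.76 and 3.97 CPM with sh68, 1.14, 1.04 and 1.15 with sh72 and 4.67, 4.29 and 4.02 with shSCR (log2 fold change -1.77 ± 0.152, adjusted p = 6.40e-10), and so did the adaptor kinase IRAK4 at -0.87 ± 0.0423. The sh72 libraries were therefore below both other groups in TLR7 and close to the control in TLR9. In the genes of MHC class I supply, 6 of 13 were higher with sh72 (46.2%) and 1 lower (7.69%), and 0 passed the minimum of 1.5-fold. PSME1, an activator of the proteasome, was higher by 0.47 ± 0.0412, while the lower one was NLRC5, the class I transactivator, at 20.8, 20.8 and 22.6 CPM with sh68, 14.8, 15.2 and 14.7 with sh72 and 20.3, 20.4 and 18.7 with shSCR (log2 fold change -0.52 ± 0.064). CIITA, the class II transactivator, was lower too, at 64.6, 55.6 and 58.2 CPM with sh68, 31.4, 32.9 and 29.5 with sh72 and 54.6, 45 and 49.6 with shSCR (log2 fold change -0.93 ± 0.0654, adjusted p = 2.12e-11), with exons that overlap DEXI.

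Genes of B-cell precursors went the other way. Of 22 tested genes of B-cell precursors, 19 were lower with sh72 (86.4%) and 2 higher (9.09%), against 29% and 27.2% of all genes. The median log2 fold change was -0.504. Against the control the medians were 0.378 for sh68 and -0.164 for sh72. The members' summed level was 5780 to 5920 CPM with sh68, 3750 to 3940 with sh72 and 4480 to 4660 with shSCR. Under the minimum of 1.5-fold, 7 members were lower. In bulk RNA, fewer cells of a kind and less RNA per cell cannot be told apart.

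RAG1 and RAG2 make the recombinase that assembles antibody genes, and lie side by side on chromosome 11 at chr11:36510353-36579762 and chr11:36590996-36598236. RAG1 stood at 35, 32.7 and 33.4 CPM with sh68, 2.39, 2.97 and 3.15 with sh72 and 4.48, 3.67 and 4.72 with shSCR, a 11.9-fold lower level with sh72 (log2 fold change -3.58 ± 0.093, adjusted p = 1.53e-19). RAG2 stood at 7.19, 6.84 and 6.67 CPM with sh68, 0.758, 0.853 and 0.59 with sh72 and 1.08, 0.831 and 0.542 with shSCR (log2 fold change -3.22 ± 0.173, adjusted p = 1.37e-13), with exons that overlap C11orf74. In both, the sh68 libraries were the high group. The sh72 libraries of RAG1 lay below the control libraries, and those of RAG2 overlapped them. VPREB1, a part of the surrogate light chain of the precursor receptor, was at 4.64, 5.07 and 4.71 CPM with sh68, 0.292, 0.19 and 0.262 with sh72 and 0.371, 0.242 and 0.223 with shSCR (log2 fold change -4.25 ± 0.214). VPREB1 passed the low-count filter through the sh68 libraries alone, so its difference is a description, and it is 1 of the 19 lower precursor genes. IL7R, the interleukin-7 receptor that sustains precursors, stood at 111, 100.2 and 105 CPM with sh68, 17.3, 17.8 and 17.1 with sh72 and 10.2, 9.42 and 10.1 with shSCR (log2 fold change -2.60 ± 0.0531, adjusted p = 2.61e-21). Unlike in RAG1, the sh72 libraries of IL7R were above the control, though 6.05-fold below sh68.

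In the germinal-centre list, 19 of 35 tested members were lower with sh72 (54.3%) and 8 higher (22.9%), against 29% and 27.2% of all genes. The list's median was -0.183. Under GC and length offsets that median was -0.0994, against 0.0543 over all genes, and under the minimum of 1.5-fold 10 members were lower. BCL7A, a chromatin remodelling subunit often mutated in this lymphoma, was at 301, 292 and 293 CPM with sh68, 98.2, 97.7 and 99.4 with sh72 and 196, 199.7 and 199 with shSCR (log2 fold change -1.58 ± 0.0358). BACH2, a repressor that holds off plasma cell fate, was at 562, 551 and 539.8 CPM with sh68, 239, 245 and 240.2 with sh72 and 469.7, 485 and 462 with shSCR (log2 fold change -1.19 ± 0.0356). SUGCT, which passed the low-count filter through sh68 alone, was at 0.522, 1.03 and 1.11 CPM with sh68, 0.117, 0.158 and 0.164 with sh72 and 0.278, 0.277 and 0.351 with shSCR (-2.59 ± 0.384). In BCL7A and BACH2 all sh68 values lay above the control and all sh72 values below it. BCL6 itself, the master regulator of the germinal centre, was slightly higher with sh72, at 580.4, 563 and 547 CPM with sh68, 630.3, 584 and 610.3 with sh72 and 656, 661 and 635 with shSCR (log2 fold change 0.11 ± 0.0374, adjusted p = 0.015).

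The identity markers of the line were present in all libraries, with a median of -0.428. Of 16, 13 were lower with sh72 (81.2%), 2 higher (12.5%) and 1 not passed, against 29% lower and 27.2% higher of all genes. For this list the median was 0.0289 for sh68 minus shSCR and -0.422 for sh72 minus shSCR. PAX5, the factor that keeps B-cell identity, stood at 615, 615 and 596 CPM with sh68, 284, 267 and 259 with sh72 and 557, 576 and 533 with shSCR (log2 fold change -1.17 ± 0.04, adjusted p = 2.59e-17). CD79A, a signalling chain of the B-cell receptor, stood at 610.2, 631 and 592 CPM with sh68, 325, 290.0 and 270.0 with sh72 and 676, 689.7 and 621 with shSCR (log2 fold change -1.05 ± 0.0514, adjusted p = 2.56e-14). In these genes sh68 was near the control and sh72 was the low group, unlike in VPREB1 and RAG2, where sh68 was the high group. The higher markers were BCL6 and SPIB (1 of them without sh68 replicate 3), and TNFRSF13C did not pass.

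Genes of B-cell receptor signalling were lower in 18 of 35 (51.4%) and higher in 7 (20%), against 29% and 27.2% of all genes. The list had a median of -0.0938. Under GC and length offsets that median was -0.0125, against 0.0543 over all genes. CD72, an inhibitory coreceptor, was at 104, 94.5 and 103 CPM with sh68, 42.4, 43.8 and 42.3 with sh72 and 84.9, 82.9 and 85.8 with shSCR (log2 fold change -1.23 ± 0.0456), with exons that overlap TESK1. VAV2, an exchange factor of the VAV family, was lower by 1.35 on the log2 scale. Memory and activation genes were lower in 16 of 25 (64%) and higher in 2 (8%), SAMSN1 and FCRL3, with a median of -0.404. Against the control the list's median was 0.568 with sh68 and -0.0401 with sh72, with members well above and well below it in the latter. The count of higher members was 4 without sh68 replicate 2. FCER2 and CCND2 passed the low-count filter through the sh68 libraries alone, so their differences are a description. CCR7, a homing receptor for lymph nodes, was at 24.5, 26.2 and 26.7 CPM with sh68, 4.84, 7.08 and 8.79 with sh72 and 22, 20.5 and 18.7 with shSCR (log2 fold change -1.91 ± 0.113, adjusted p = 7.99e-13). CCR6, a receptor of memory cells, was at 3.22, 3.85 and 4.51 CPM with sh68, 1.17, 0.884 and 0.656 with sh72 and 1.89, 1.63 and 2.65 with shSCR (-2.08 ± 0.208), and FCER2, the low-affinity IgE receptor, had 1.2, 0.826 and 0.795 CPM with sh68 and 0.0583, 0 and 0 with sh72. The activation marker CD69 and the costimulatory ligand CD80 showed no detectable difference, at log2 fold changes of -0.04 ± 0.182 and 0.08 ± 0.107 (adjusted p = 0.873 and 0.539). CD69 was 1.93, 1.82 and 1.56 CPM with sh68, 1.49, 1.99 and 1.71 with sh72 and 0.34, 0.485 and 0.383 with shSCR, and CD80, which overlaps TIMMDC1, was 6.02, 5.44 and 6.16 CPM with sh68, 6.18, 5.56 and 6.92 with sh72 and 2.1, 2.49 and 2.33 with shSCR.

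Plasma cell genes had no common direction, with 5 of 23 higher (21.7%) and 7 lower (30.4%), against 27.2% and 29% of all genes. TNFRSF17, the receptor BCMA, was at 28, 29.8 and 28.4 CPM with sh68, 11.8, 12.2 and 10.4 with sh72 and 10.1, 10.5 and 11.1 with shSCR (log2 fold change -1.32 ± 0.0681, adjusted p = 6.37e-14). SDC1, the plasma cell marker CD138, was at 3.9, 3.42 and 4.29 CPM with sh68, 0.787, 1.04 and 0.82 with sh72 and 1.55, 1.9 and 1.21 with shSCR (-2.13 ± 0.185), and IRF4, a driver of plasma cell fate, at 1.04, 0.655 and 1.56 CPM with sh68, 0.437, 0.379 and 0.262 with sh72 and 0.371, 0.277 and 0.255 with shSCR (-1.58 ± 0.33). XBP1, the factor of the secretory programme, was above the control with both and lower with sh72, at 83.2, 78 and 80.5 CPM with sh68, 65.6, 58.2 and 64.5 with sh72 and 42, 41.4 and 39.98 with shSCR (log2 fold change -0.36 ± 0.0481). ELL2, an elongation factor for antibody transcripts, was higher, at 2.86, 2.71 and 3.46 CPM with sh68, 6.53, 6.29 and 7.48 with sh72 and 2.32, 3.01 and 2.65 with shSCR (1.16 ± 0.125). PRDM1, the master factor of plasma cells, lay below 0.412 CPM in every library and did not pass (0.17 ± 0.356, adjusted p = 0.703). Genes of migration and adhesion were lower in 13 of 28 (46.4%) and higher in 9 (32.1%). Among the lower ones was CXCR4, which positions cells in the germinal-centre dark zone, at 186, 166 and 179 CPM with sh68, 58.3, 61.7 and 64.1 with sh72 and 66.9, 63.4 and 62.7 with shSCR (log2 fold change -1.53 ± 0.0474, adjusted p = 4.60e-18).

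**Figure D3:**
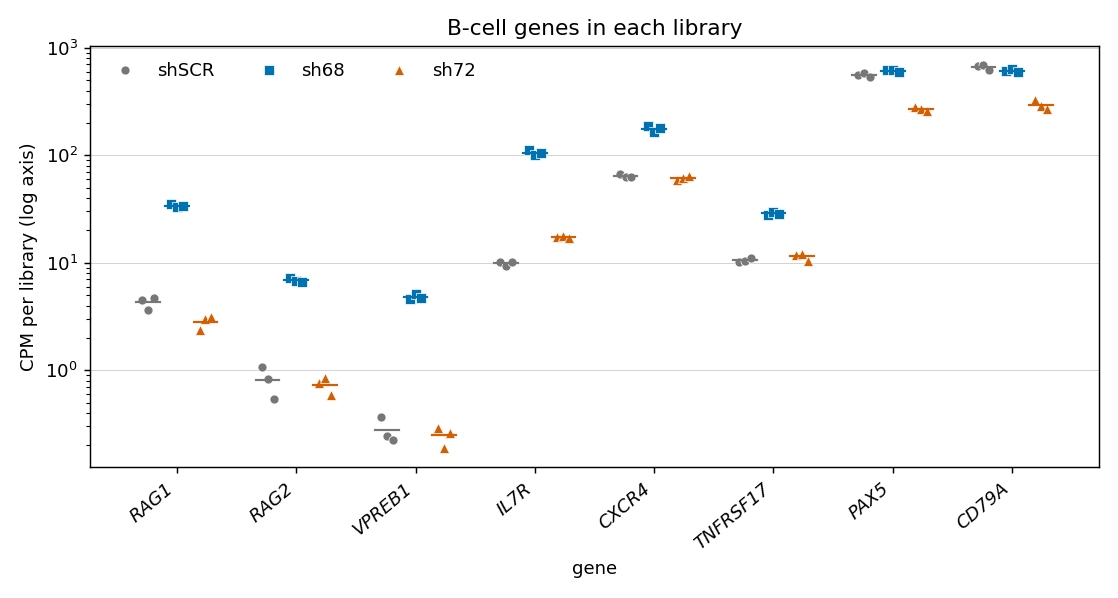
CPM of 8 B-cell genes in each library (vertical log axis), with 3 points a group and a bar at the group mean. In RAG1, RAG2, VPREB1, IL7R, CXCR4 and TNFRSF17 sh68 is the high group, while in PAX5 and CD79A sh72 is the low group, as in PAX5 at 259 to 284 CPM against 596 to 615 with sh68.

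The 15 largest decreases also held genes outside the B-cell lists. COL19A1, a collagen, had the largest of these decreases, at 8.26, 5.95 and 7.47 CPM with sh68, 0.146, 0.442 and 0.23 with sh72 and 0.68, 1.21 and 0.957 with shSCR (log2 fold change -4.72 ± 0.242, adjusted p = 6.16e-14), with exons that overlap LMBRD1. MYL4, a myosin light chain of embryonic muscle and atrium, was at 8.9, 8.23 and 9.54 CPM with sh68, 0.641, 0.821 and 0.525 with sh72 and 1.24, 0.692 and 0.925 with shSCR (-3.74 ± 0.168). TMEM2, a hyaluronidase of the cell surface, was at 89.97, 80.4 and 79.3 CPM with sh68, 6.15, 6.32 and 7.9 with sh72 and 17.9, 22.1 and 20.9 with shSCR (-3.62 ± 0.0834). P4HA2, a subunit of collagen prolyl hydroxylase, was at 359.7, 338 and 315 CPM with sh68, 33, 37.7 and 37.5 with sh72 and 82.8, 85.4 and 75.6 with shSCR (log2 fold change -3.23 ± 0.0576, adjusted p = 2.28e-22), with exons that overlap P4HA2-AS1. For P4HA2 and TMEM2 the control lay between the shRNAs, with sh68 above it and sh72 below. IL1B, the inflammatory cytokine, and FCMR, the IgM receptor, were at -3.45 ± 0.209 and -3.14 ± 0.112. The cadherin-type genes DCHS1 and CDHR3, RHBDL3, TMEM174, PCAT7 and CPNE2 were also in the group, with log2 fold changes from -3.71 to -3.14.

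Of the 15 largest increases, 5 were in genes outside the interferon list. AGR2, a disulfide isomerase of the endoplasmic reticulum, stood at 16.1, 18.4 and 17.5 CPM with sh68, 68.1, 59 and 70.2 with sh72 and 10.1, 9.73 and 9.06 with shSCR (log2 fold change 1.92 ± 0.0661, adjusted p = 3.01e-17). It was higher than the control with both shRNAs and was 3.79-fold higher with sh72. SLC7A11, the cystine importer, stood at 6.69, 8.38 and 7.21 CPM with sh68, 30, 24.6 and 24.8 with sh72 and 10.6, 10.9 and 10.8 with shSCR (log2 fold change 1.83 ± 0.0871), with exons that overlap SLC7A11-AS1. ANXA2, a membrane-binding protein, stood at 3.99, 3.82 and 5.51 CPM with sh68, 16.5, 16.9 and 16.7 with sh72 and 6.28, 6.96 and 6.54 with shSCR (1.91 ± 0.101). In SLC7A11 and ANXA2 the sh68 libraries lay below the control and the sh72 libraries above it. TMC5 and LSAMP, an adhesion molecule, were higher with sh72 by 1.79 and 1.95 on the log2 scale and near the control with sh68.

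In 6 lists of growth and protein handling, most members were higher with sh72 by small amounts. Other lists of this kind did not share that direction. Over all genes tested, 27.2% were higher and 29% lower. The top 2 quintiles of level held 243 of the 269 tested members of the 6 lists. In these quintiles 39.8% and 40.1% of genes were higher. Cytosolic ribosomal proteins were higher in 8 of 77 and lower in 33, and genes of ER folding higher in 10 of 34 and lower in 11. Mitochondrial ribosomal proteins were higher in 54 of 72 and lower in 2, MRPS6 and MRPS27 (median 0.253). Nuclear-encoded subunits of oxidative phosphorylation were higher in 55 of 73 and lower in 6 (median 0.239), and 2 were lower without sh68 replicate 2 or sh72 replicate 3. Proteasome subunits were higher in 26 of 32 (median 0.27), and by edgeR, DESeq2 and limma-voom 0 were lower, also at an unadjusted p below 0.05. Chaperones were higher in 23 of 28, with HSPD1 the only lower member (median 0.316). In a list of MYC, related genes and nucleolar MYC targets, 34 of 44 were higher and 4 lower, MXD3, MXI1, RRP1B and URB2 (median 0.237). Aminoacyl-tRNA synthetases were higher in 14 of 20, with QARS lower (median 0.249). For each of these 6 lists the median of sh68 minus shSCR was below 0, from -0.215 to -0.11, and that of sh72 minus shSCR above 0, from 0.0195 to 0.162. Under the minimum of 1.5-fold NOB1, MRPL1 and MRPL28 were the members of these 6 lists that passed, all higher.

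The members named by the rule give the size of these shifts. MRPL1, of the large mitochondrial subunit, was the largest at 13, 15 and 13.1 CPM with sh68, 32.7, 31 and 30.7 with sh72 and 19, 18.1 and 19.1 with shSCR (log2 fold change 1.2 ± 0.0642, adjusted p = 1.29e-13). NOB1, which trims the small ribosomal subunit RNA, was at 48.8, 51.8 and 50.7 CPM with sh68, 92.1, 89.2 and 83.6 with sh72 and 80.3, 84 and 77.8 with shSCR (0.81 ± 0.0468). CYC1, cytochrome c1, was at 134, 145 and 135 CPM with sh68, 215, 207 and 195 with sh72 and 213, 213 and 202 with shSCR (log2 fold change 0.58 ± 0.0427), below the control with sh68 and at it with sh72. PSMB6, a catalytic subunit of the proteasome, was at 69.7, 73.1 and 67.6 CPM with sh68, 103, 94 and 87.9 with sh72 and 87.9, 91.9 and 84.8 with shSCR (0.44 ± 0.0512), and GARS, the glycine tRNA synthetase, at 299.7, 320.3 and 302 CPM with sh68, 447, 435 and 416 with sh72 and 392, 383 and 380.1 with shSCR (0.49 ± 0.0381). HSP90AB1, a cytosolic chaperone, was at 1072, 1100.5 and 1088 CPM with sh68, 1741, 1607 and 1600.2 with sh72 and 1489.6, 1425 and 1403 with shSCR (log2 fold change 0.60 ± 0.0386, adjusted p = 3.66e-12). MYC differed little, with 386, 369.9 and 361 CPM with sh68, 424, 391 and 381 with sh72 and 418, 423 and 404 with shSCR and overlapping groups (log2 fold change 0.10 ± 0.0408, adjusted p = 0.0438). Housekeeping genes moved in the same direction, with 17 of 29 higher (58.6%) and 4 lower (13.8%), against 27.2% and 29% of all genes (median 0.191).

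Metabolic genes followed in part. Of 40 genes of glycolysis and hypoxia, 22 were higher with sh72 (55%) and 7 lower (17.5%), against 27.2% and 29% of all genes. The list's median was 0.231. SLC2A3, 1 of the lower ones, passed the low-count filter through sh68 alone. The largest difference of the list was the decrease of P4HA2, given above. ENO1, the glycolytic enolase, was at 2147, 2314 and 2297 CPM with sh68, 3317, 3378 and 3499 with sh72 and 3473, 3664 and 3599.8 with shSCR (log2 fold change 0.59 ± 0.0385), with exons that overlap ENO1-AS1, and CA9, a carbonic anhydrase induced by hypoxia, at 20.5, 23.8 and 18 CPM with sh68, 31.6, 50.04 and 46.4 with sh72 and 35.2, 37.9 and 33.3 with shSCR (1.04 ± 0.113). In ENO1 the sh68 libraries lay below the control and the sh72 libraries near it. Of 32 ATF4 targets, 20 were higher (62.5%) and 4 lower (12.5%), with a median of 0.261. The largest difference of the list was in NUPR1, a stress-induced nuclear protein, at 0.399, 0.313 and 0.596 CPM with sh68, 0.0292, 0.0316 and 0.0984 with sh72 and 0.124, 0 and 0.0319 with shSCR (log2 fold change -2.98 ± 0.593). NUPR1 passed the low-count filter through the sh68 libraries alone. The largest increase was that of SLC7A11, followed by ALDH1L2 and CHAC1, an enzyme that breaks down glutathione, at 1.40 ± 0.273 and 1.35 ± 0.145. The genes with the largest gains in CPM, which also depend on transcript length and level, were ACTB, ENO1, GAPDH, LCP1, PKM, HSP90AB1, MX1 and HSPA8. ACTB, actin, was at 3560.2, 3663 and 3366 CPM with sh68, 5328, 4602 and 4597 with sh72 and 4458, 4586 and 4287 with shSCR (log2 fold change 0.46 ± 0.0484). Several of these genes have processed pseudogenes of near-identical sequence, so reads could be split between copies.

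Transcripts of the mitochondrial genome were measured apart from the nuclear genes of the same complexes. Of 13, 7 were lower with sh72 (53.8%) and 1 higher (ND6, 7.69%), against 29% and 27.2% of all genes. The median of the 13 was -0.0908, and -0.0486 without sh72 replicate 3. ND6 lost its call without sh68 replicate 3 or sh72 replicate 1. COX1, a catalytic subunit of cytochrome oxidase, was at 8646, 8744 and 8365 CPM with sh68, 6744, 6440.0 and 6569 with sh72 and 9283, 9022 and 9038 with shSCR (log2 fold change -0.38 ± 0.0359, adjusted p = 3.04e-09). COX2, COX3 and CYTB were lower by 0.47, 0.43 and 0.31 on the log2 scale, and these 4 had the largest losses in CPM of the genes that met the naming rule. The share of counts on mitochondrial mRNAs was 5.25% to 5.52% in the sh68 libraries, 4.56% to 4.81% with sh72 and 5.16% to 5.33% with shSCR. Cytosolic ribosomal proteins were lower in 33 of 77 (42.9%) and higher in 8 (10.4%), with a median of -0.0912. The median was -0.0491 without sh68 replicate 2 and -0.038 without sh72 replicate 3, and 5 were higher without sh68 replicate 1. RPS3 stood out at 1481, 1601 and 1440.4 CPM with sh68, 807, 813 and 771 with sh72 and 1555, 1622 and 1518 with shSCR (log2 fold change -0.92 ± 0.0412, adjusted p = 4.79e-15), and its sh72 libraries lay below both other groups. TPT1, a growth-associated protein whose gene overlaps SNORA31, was at 2015, 2092 and 2047 CPM with sh68, 1167, 1238 and 1199 with sh72 and 1656, 1703 and 1633 with shSCR (-0.77 ± 0.0359).

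**Figure D4:**
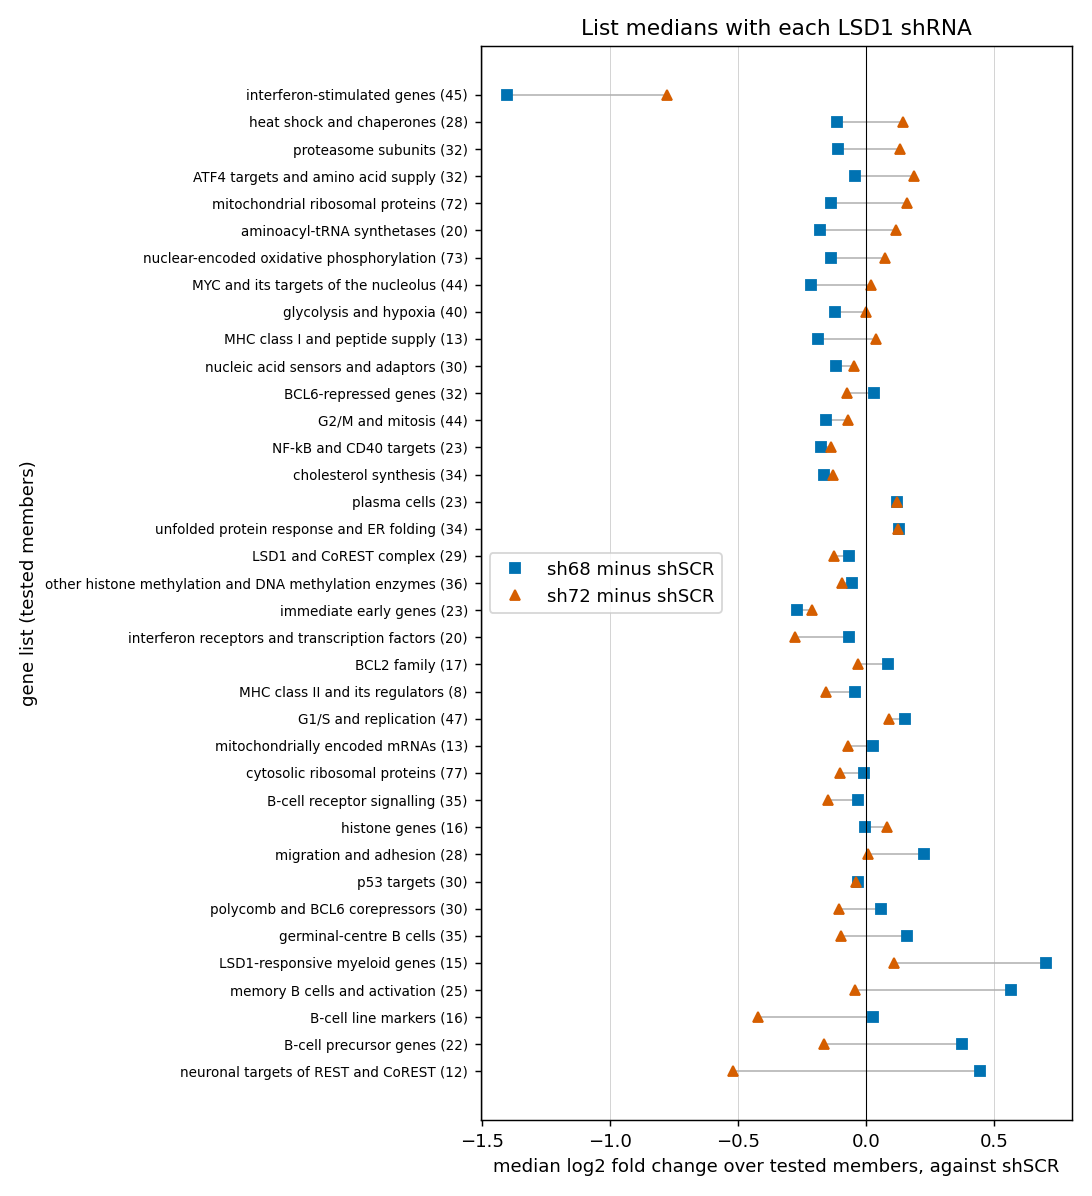
Median log2 fold change of the tested members of 37 gene lists against shSCR, for sh68 (squares) and sh72 (triangles), joined by a line and ordered by the median of sh72 minus sh68, with the number of tested members in parentheses. Interferon-stimulated genes are at -1.40 with sh68 and -0.778 with sh72, and B-cell precursor genes at 0.378 and -0.164. Both sets of medians share the control libraries.

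Cell cycle genes changed in both directions. Of 47 genes of the G1/S transition and replication, 21 were lower with sh72 (44.7%) and 10 higher (21.3%), against 29% and 27.2% of all genes. The list's median was -0.0857, and 0.0138 under GC and length offsets, where that of all genes was 0.0543. Without sh72 replicate 2 the list's median was -0.0242, and without sh72 replicate 3 -0.0292. CCND2, 1 of the lower genes, passed the low-count filter through sh68 alone. CCNE1, cyclin E, stood at 71.8, 65.7 and 72.5 CPM with sh68, 45.1, 49.4 and 49.4 with sh72 and 71.4, 70.4 and 72.2 with shSCR (log2 fold change -0.55 ± 0.0491, adjusted p = 1.51e-09), and E2F8, a repressor of the E2F family, at 64.8, 64.9 and 67.3 CPM with sh68, 45.6, 44.2 and 43.2 with sh72 and 64.6, 68.3 and 67.3 with shSCR (-0.57 ± 0.0451). Both were at the control with sh68 and below it with sh72. Of 44 mitotic genes, 19 were higher (43.2%) and 10 lower (22.7%), with a median of 0.0692. That median was 0.00906 without sh68 replicate 1, 0.118 without sh68 replicate 2, 0.0332 without sh72 replicate 1 and 0.117 without sh72 replicate 2. AURKB, a mitotic kinase, was at 52.5, 53.8 and 55.3 CPM with sh68, 74, 68 and 66.4 with sh72 and 64.2, 66.5 and 66.3 with shSCR (0.37 ± 0.047), and KIF14, a kinesin of cell division, at 64.9, 70.02 and 70.3 CPM with sh68, 37.1, 36.5 and 45.7 with sh72 and 73.8, 69.2 and 78.4 with shSCR (log2 fold change -0.79 ± 0.0656). KIF14 was the lowest member of its list and fell with sh72 below both other groups.

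Genes of p53 and of cell death showed named members with large differences and no common direction. Of 30 p53 targets, 12 were higher (40%) and 14 lower (46.7%). MDM2, the ubiquitin ligase of p53, was at 617, 583 and 633 CPM with sh68, 319, 288 and 315 with sh72 and 219.8, 238 and 244 with shSCR (log2 fold change -0.99 ± 0.0451, adjusted p = 5.93e-15). It was higher than the control with both shRNAs. CDKN1A, the cell cycle inhibitor p21, was at 235, 216 and 228 CPM with sh68, 137, 138 and 132 with sh72 and 179, 175 and 159 with shSCR (log2 fold change -0.74 ± 0.0444, adjusted p = 1.15e-12), above the control with sh68 and below it with sh72. Of 17 BCL2 family genes, 7 were lower (41.2%) and 5 higher (29.4%), against 29% and 27.2% of all genes. The 4 with the lowest log2 fold changes were HRK, BIK, BBC3 and BCL2L11, which encode activators of cell death. HRK was at 184, 168 and 174 CPM with sh68, 71.3, 65.4 and 61.4 with sh72 and 99.3, 98 and 101 with shSCR (log2 fold change -1.41 ± 0.0482, adjusted p = 2.79e-17), and BCL2L11, the activator BIM, at 469.8, 466 and 472 CPM with sh68, 286, 306 and 301 with sh72 and 404, 426 and 407 with shSCR (log2 fold change -0.66 ± 0.0367, adjusted p = 2.94e-13), with exons that overlap MIR4435-2HG.

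The partners of LSD1 differed in both directions. Of 29 tested genes of the LSD1 and CoREST complexes, 7 were higher with sh72 (24.1%) and 12 lower (41.4%), against 27.2% and 29% of all genes. Under GC and length offsets 14 were higher and 6 lower. RCOR1, the CoREST scaffold, was at 0.17 ± 0.0436, HDAC1 at -0.10 ± 0.0387 and HDAC2 at 0.12 ± 0.0347, each a small shift. KDM1B, the paralogue of LSD1, was at 56.2, 57.5 and 59.99 CPM with sh68, 53.6, 53.2 and 53.9 with sh72 and 57.1, 56.3 and 57.1 with shSCR (log2 fold change -0.11 ± 0.0438, adjusted p = 0.0314). GFI1, the repressor that recruits LSD1, was at 67.7, 62.3 and 66.8 CPM with sh68, 42.7, 41.1 and 40.4 with sh72 and 39.2, 37.9 and 38.1 with shSCR (log2 fold change -0.66 ± 0.0475, adjusted p = 2.85e-11), higher than the control with sh68 and near it with sh72. The largest difference of the list was in CTBP2, a corepressor at low levels in all groups, at 5.19, 4.73 and 5.68 CPM with sh68, 1.14, 0.821 and 1.15 with sh72 and 2.44, 2.35 and 1.95 with shSCR (-2.32 ± 0.161), with exons that overlap ZRANB1. Among 30 polycomb genes and BCL6 corepressors, 14 were lower (46.7%) and 5 higher (16.7%). BCOR, a BCL6 corepressor, was at 62, 62.6 and 62.7 CPM with sh68, 43.6, 39.4 and 40.6 with sh72 and 59.3, 58.9 and 52.3 with shSCR (log2 fold change -0.60 ± 0.0527). TBL1XR1, a part of the NCOR complex, was at 325, 329.9 and 331 CPM with sh68, 219, 215 and 224 with sh72 and 221, 253 and 234 with shSCR (-0.58 ± 0.0413), above the control with sh68 and overlapping it with sh72.

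LSD1 complexes silence genes of other lineages, and many of those listed were at low levels here. Of 28 neuronal targets of REST in the table, 12 passed the filter, 9 were lower with sh72 and 1 higher, L1CAM. CELF4 and KCNC1 passed the filter through the sh68 libraries alone, so these counts are a description. PCDH9, a protocadherin, was at 8.26, 6.87 and 7.81 CPM with sh68, 3.47, 3.03 and 3.31 with sh72 and 0.495, 0.346 and 0.383 with shSCR (log2 fold change -1.22 ± 0.115, adjusted p = 3.42e-09), above the control with both shRNAs. Of 15 tested myeloid genes that respond to LSD1, 7 were lower (46.7%) and 3 higher (20%), against 29% and 27.2% of all genes. LYZ, 1 of the lower ones, passed the low-count filter through sh68 alone. CLEC7A, 1 of the higher ones, passed it through sh72 alone, so these counts are a description. CYBB, the oxidase subunit of phagocytes, was at 188, 180.5 and 185 CPM with sh68, 50.4, 46.6 and 51.4 with sh72 and 45.9, 50.2 and 48.4 with shSCR (log2 fold change -1.90 ± 0.0452, adjusted p = 3.03e-20), higher than the control with sh68 and near it with sh72. MPEG1, a pore-forming protein of macrophages, was at 51.3, 60.3 and 62.3 CPM with sh68, 12.1, 13.3 and 13.7 with sh72 and 79, 90.4 and 83.9 with shSCR (-2.16 ± 0.0733), with exons that overlap DTX4, so sh72 was again the low group. LYZ, lysozyme, had 0 reads in every control library, 0.89, 0.883 and 0.596 CPM with sh68 and 0.0292, 0.0632 and 0.0328 with sh72.

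Several defining markers of other cell types had few or no reads. CD2, CD3E and NCAM1 had at most 3 reads in any library, and CD14 at most 11. Of 15 natural killer markers in the table, 6 passed the filter, with PRF1 and KLRC2 lower with sh72, and their summed level was 13 to 14.5 CPM with shSCR, 55.8 to 57.3 with sh68 and 33.4 to 35.4 with sh72. KLRC2, which has near-identical relatives, was at 36, 36.3 and 34.8 CPM with sh68, 17.9, 18.8 and 17.5 with sh72 and 5.41, 5.96 and 6.35 with shSCR (-0.98 ± 0.0593). Of 12 monocyte and macrophage markers 4 passed, with a summed level of 4.85 to 5.58, 5.93 to 6.75 and 4.02 to 4.96 CPM with shSCR, sh68 and sh72, the order also used below. Of these 4, LYZ passed through sh68 alone and CLEC7A through sh72 alone. T-cell markers, 10 of 17 tested, summed to 264 to 280, 435 to 438 and 256 to 258 CPM, with LCK and IL7R among the higher levels. Of 12 epithelial markers 4 passed, summing to 27.5 to 31.4, 13.4 to 15.6 and 24.5 to 26.6 CPM, with EPCAM, an adhesion molecule, at 7.4, 8.18 and 8.86 CPM with sh68, 16.1, 15.5 and 15.9 with sh72 and 18.1, 16.8 and 15.1 with shSCR (0.95 ± 0.0822). Of 15 fibroblast markers 6 passed, summing to 7.69 to 9.37, 15 to 16.8 and 9.33 to 13.4 CPM. Of 13 erythroid markers 3 passed, summing to 539 to 543, 540 to 562 and 449 to 492 CPM, chiefly the transferrin receptor TFRC. The part of these cell types in the results was not tested.

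Zinc finger genes of the ZNF family, chosen after their values were seen, were lower with sh72 in 250 of 424 tested (59%) and higher in 32 (7.55%), against 29% and 27.2% of all genes. Many encode DNA-binding repressors with a KRAB domain, with clusters on chromosome 19. Their median was -0.238, and -0.0665 for sh68 minus shSCR and -0.299 for sh72 minus shSCR. On chromosome 19, 136 of 199 were lower (68.3%), against 23.8% of the 833 other genes tested there, and elsewhere 114 of 225 (50.7%). ZNF253 was at 18.6, 19.8 and 20.7 CPM with sh68, 8.83, 9 and 9.02 with sh72 and 16.2, 16.3 and 17.6 with shSCR (log2 fold change -1.14 ± 0.0707, adjusted p = 1.91e-12), and ZNF681 at 20.7, 22.5 and 20.6 CPM with sh68, 10.1, 10.2 and 10.2 with sh72 and 14.3, 15.4 and 14.9 with shSCR (-1.07 ± 0.0679). In ZNF253 the sh72 values lay below both other groups. Under GC and length offsets 201 members were lower and 67 higher, and under the minimum of 1.5-fold 31 were lower. These genes share zinc finger repeats of like sequence, so reads could be split between relatives.

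The share of genes higher with sh72 rose with expression level, and the share lower rose with transcript length. In the lowest quintile of average log2 CPM, 8.93% of genes were higher with sh72 and 20.7% lower, and in the highest 40.1% were higher and 30.3% lower. The share lower was not ordered by level, at 32.1%, 33.7% and 28.3% in the quintiles between. The genes that passed the low-count filter only through sh68 (591) or sh72 (365) are counted here. The shares by level are therefore a description. Of the 269 tested members of the 6 lists of growth and protein handling, which leave out cytosolic ribosomal proteins, 76.6% were higher. Of these members, 243 lay in the top 2 quintiles of level, where 39.8% and 40.1% of genes were higher. In the shortest quintile, of 2698 genes, under 1987 bases, 30.8% were higher with sh72 and 19.2% lower, and in the longest, over 5736 bases, 24.6% were higher and 40.8% lower. Over the quintiles, 44.4% to 68.1% of ZNF genes were lower, against 19% to 39.9% of other genes, and the shortest quintile holds 18 ZNF genes. GC content showed no such order, with 28.2% to 32.4% lower in every quintile. With GC and length offsets the median was 0.951 for the interferon-stimulated genes and -0.398 for the precursor genes, against 0.0543 over all genes. The causes of the level and length trends were not tested.

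**Figure D5:**
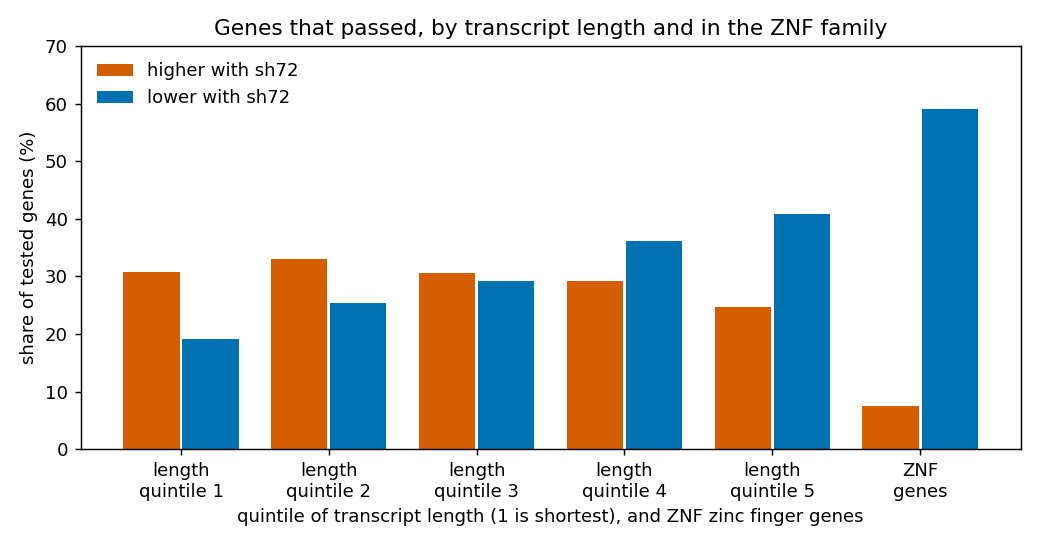
Share of tested genes that were higher (orange) or lower (blue) with sh72, in quintiles of transcript length from shortest to longest, and in the ZNF family. Lower genes go from 19.2% in the shortest quintile to 40.8% in the longest, and reach 59% of ZNF genes.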

How the data were processed

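Of 9 RNA-seq libraries from OCI-Ly1 cells, the 6 with the LSD1 shRNAs sh68 and sh72 were compared. The authors deposited unnormalized counts of reads, a whole number for each gene symbol and library. CASAVA 1.8.2, STAR 2.5.2, featureCounts 1.5.2 and hg38 appear in the submitters' processing notes. The sources used here do not give parameters, annotation or strand setting, and exon overlaps are therefore named beside the genes concerned.

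The filterByExpr function of edgeR 4.0.16 (with limma 3.58.1, R 4.3.3) kept 15725 genes. Scaling was by TMM, also for the CPM values printed. A quasi-likelihood model of the 9 libraries, with 3 group terms, had a common biological coefficient of variation of 0.0394. P values are two-sided, with Benjamini-Hochberg adjustment over the genes tested. They set a difference against the spread between the 3 cultures of a group, estimated over all 9 libraries together, shSCR included. A gene's precision follows its reads, and the median SE was 0.0726 on the log2 scale.

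The members, the 44 gene lists and the tests were chosen with earlier results of these data known. Lists are described by counts and medians, with no list test. Named genes were those with the 15 largest increases and 15 largest decreases among passing genes with a symbol, separate groups and a mean log2 CPM of 1 or more, which 3595 higher and 3282 lower genes met. To these came the 8 largest gains and losses in CPM, up to 4 members of each list by size of change, and 24 genes fixed by name. Members behind a count of 5 or fewer were also named, after their values were seen. Some genes that meet these rules are not reported here. The alternatives comprised other scaling (RLE, or library size), other filters (none, or 1 CPM in 3 libraries) and other tests (DESeq2 1.42.0, limma-voom, robust edgeR). Further ones were the 6 libraries alone, a replicate block, a 1.5-fold minimum, GC and length offsets, and each library left out. Positions and promoters are from RefSeq GRCh38.p14, which held 23569 of 26816 symbols. Lengths and GC content are from GENCODE 29, which held 19370.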

Additional observations from a re-analysis of the deposited data

How the results depend on the processing

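The count of genes higher with sh72 was 3945 to 4356 and of genes lower 4147 to 4531 when each library was left out in turn. Every other alternative kept both counts within 1.5 times of 4278 and 4563, except the minimum of 1.5-fold with 359 higher and 1036 lower. DESeq2 gave 4036 and 3918. The replicate block gave 4480 and 4710, and changed no call among the 197 named genes. Libraries of the same number did not deviate together (Pearson r of residuals -0.0358, -0.0255 and 0.037 for numbers 1 to 3). With each library left out, the log2 fold change of CD69 ran from -0.144 to 0.0631 and that of PRDM1 from -0.0238 to 0.35. CD69 changed sign to 0.0298 without sh68 replicate 1 and 0.0631 without sh72 replicate 1, and PRDM1 to -0.0238 without sh68 replicate 2. None of these was called, and the cause was not tested. Outside the minimum of 1.5-fold, 11 named genes lost their call under some alternative: KDM1B, HDAC1, CD68, MYC, BCL6, RFXANK, CCND2, GFI1B, BMI1, SLC2A3 and MUC1. The interferon median was 0.816 to 0.951 and the precursor median -0.528 to -0.398 over all alternatives. Genes under about 1 CPM rest on few reads, so their differences were detectable only where large.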

Other observations

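The lists of NF-kB and CD40 targets, immediate early genes, the unfolded protein response and lipid synthesis had medians near that of all genes. Named members of these lists had clear differences. Over all genes, 27.2% were higher with sh72 and 29% lower. Of 23 NF-kB and CD40 targets, 7 were higher with sh72 and 8 lower. TNFAIP3, the brake on NF-kB, was at 7.49, 7.09 and 7.92 CPM with sh68, 11.5, 12.6 and 13.1 with sh72 and 14.1, 12.3 and 12 with shSCR (log2 fold change 0.72 ± 0.087). STAT5A, a transducer of interleukin signals, was at 8.9, 8.18 and 8.49 CPM with sh68, 3.85, 3.89 and 3.67 with sh72 and 1.67, 1.87 and 1.63 with shSCR (-1.16 ± 0.101), above the control with both shRNAs. Of 23 immediate early genes, 8 were higher and 9 lower, with EGR1 at 1.08 ± 0.216 and DUSP6, a phosphatase of ERK, at -1.26 ± 0.0955. NR4A2, 1 of the lower ones, passed the low-count filter through sh68 alone. In the unfolded protein response 10 of 34 were higher and 11 lower. EIF2AK3, the sensor kinase PERK, was at 96.2, 90.2 and 94.3 CPM with sh68, 54.1, 53.5 and 56.8 with sh72 and 48, 50.03 and 51.2 with shSCR (log2 fold change -0.77 ± 0.0446). In cholesterol and fatty acid synthesis 12 of 34 were higher and 7 lower. SCD, which makes monounsaturated fatty acids, was at 441, 471 and 454 CPM with sh68, 752, 813 and 796 with sh72 and 854, 869 and 865 with shSCR (0.79 ± 0.0376), and MSMO1, a sterol oxidase, at 163, 177 and 174 CPM with sh68, 99.7, 108 and 109 with sh72 and 252, 278 and 266 with shSCR (-0.70 ± 0.0453), so both lay below the control with sh68 and took opposite directions between the shRNAs.

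Host genes of small nucleolar RNAs named SNHG, chosen after their values were seen, were higher with sh72 in 10 of 18 and lower in 3 (SNHG6, SNHG10 and SNHG16), with a median of 0.307. SNHG15 was at 59, 60.9 and 58.1 CPM with sh68, 87.5, 89.6 and 84.2 with sh72 and 86.8, 92.3 and 89.5 with shSCR (log2 fold change 0.55 ± 0.043), with exons that overlap SNORA9. SNHG3, which overlaps RCC1, was at 55.5, 51.3 and 59.1 CPM with sh68, 83.4, 90.7 and 85.6 with sh72 and 64.6, 60.5 and 64 with shSCR (0.65 ± 0.0507). Of 161 snoRNA genes tested, 130 did not pass, 31 were higher (19.3%, against 27.2% of all genes) and 0 lower by edgeR's quasi-likelihood test, and at an unadjusted p below 0.05 36 were higher and 0 lower. DESeq2 and limma-voom called 0 lower as well. The count of higher ones was 14 with DESeq2, 19 under GC and length offsets or without sh68 replicate 3, and 15 without sh72 replicate 2. Polyadenylated RNA was sequenced and the strand setting is not given, so reads of snoRNAs and of overlapping host transcripts cannot be told apart.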
